A study of Mus musculus with 4 samples.

Results

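Sertoli cell identity and hormone genes were followed in whole testes of adult mice, Azin2 KO and Azin2 WT. The set held 10 genes, Sox9, Wt1, Gata1, Gata4, Amh, Amhr2, Fshr, Inhbb, Dhh and Kitl, chosen by symbol from the probe annotation of the Affymetrix Mouse Gene 1.1 ST array, out of 18820 genes with a value of their own. Each of the 10 had 1 probe set paired with it alone, and all 10 were measured on every array. Total RNA from whole testes was hybridized to 4 arrays, 2 from Azin2 KO mice and 2 from Azin2 WT mice, each carrying pooled RNA of 3 mice. KO mice carried a β-Geo cassette inserted into the Azin2 locus, so that the Azin2 promoter drives the start of AZIN2 fused to bacterial β-galactosidase. The colony was kept on a C57BL/6 mixed background and the animals of the study were 3 to 4 months old. The spread between arrays is therefore a spread between pools, and the number of arrays limits the precision.

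Sertoli cells are the somatic cells of the seminiferous tubule. They surround the germ cells, form the blood-testis barrier and answer both to the pituitary hormone FSH and to testosterone from Leydig cells. SOX9, WT1 and GATA4 establish their identity in the fetal gonad and are still made in the adult, while the hormones and ligands they secrete act on the pituitary, on germ cells and on the interstitial cells around the tubule. Not every gene of the set is made by Sertoli cells alone, as Gata4, Wt1 and Amhr2 are known to be used by other somatic cells of the gonad. In RNA from whole testis, fewer cells of a type and less RNA per cell cannot be told apart.

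The values are the authors' normalized log2 signals, with array medians between 6.08 and 6.11. Over the 6 pairs of arrays, differences had an SD of 0.156 to 0.181, and pairs of 1 genotype (0.170 for KO, 0.166 for WT) lay inside that range. Azin2, the targeted gene, had log2 signals of 7.36 and 7.14 in KO testes, against 10.16 and 9.998 in WT testes (log2 fold change -2.83, adjusted p = 0.0250 from limma). Among the Sertoli cell genes, 9 had a signal above the median of the array on all 4 arrays, and Amh lay below it on all 4. Of 12 other Sertoli cell markers, 2 (Defb45 and Gdnf) lay below the median on all 4 arrays. No detection calls were used here, so that for these dim genes the share of the signal that is background hybridization is not known.

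The comparison of KO with WT testes asked whether loss of AZIN2 went with a different level of these genes. No Sertoli cell gene differed between KO and WT testes by limma, either at an adjusted p under 0.05 (0 of 10, lowest adjusted p = 0.99955) or at an unadjusted p under 0.05 (0 of 10). Over the 23099 named probe sets, 0.00433% passed the first threshold and 4.10% the second (2.14% higher and 1.96% lower in KO testes). None of the 10 genes combined an unadjusted p under 0.05 with a change of 1.5-fold or more, as 0.0823% of the named probe sets did. The log2 fold changes of the 10 genes (KO minus WT) lay between -0.06 for Kitl and 0.21 for Amh, 8 above 0 and 2 below 0, with a median of 0.08 and a median standard error of 0.08. Over all genes the median was 0.01, and 56.6% were above 0. The 95% confidence intervals from limma, on the scale of the normalized signal, had their highest upper bound at a fold of 1.43, for Amh, and their lowest lower bound at 0.835 of the WT level, for Gata4. They rest on the spread that limma shares among genes, and with the spread of each gene alone (ordinary equal-variance test) the intervals of 5 of the 10 genes, Sox9, Gata1, Gata4, Amh and Fshr, reached a fold of 1.5 in at least 1 direction, up to 1.93 for Amh.

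**Figure D1:**
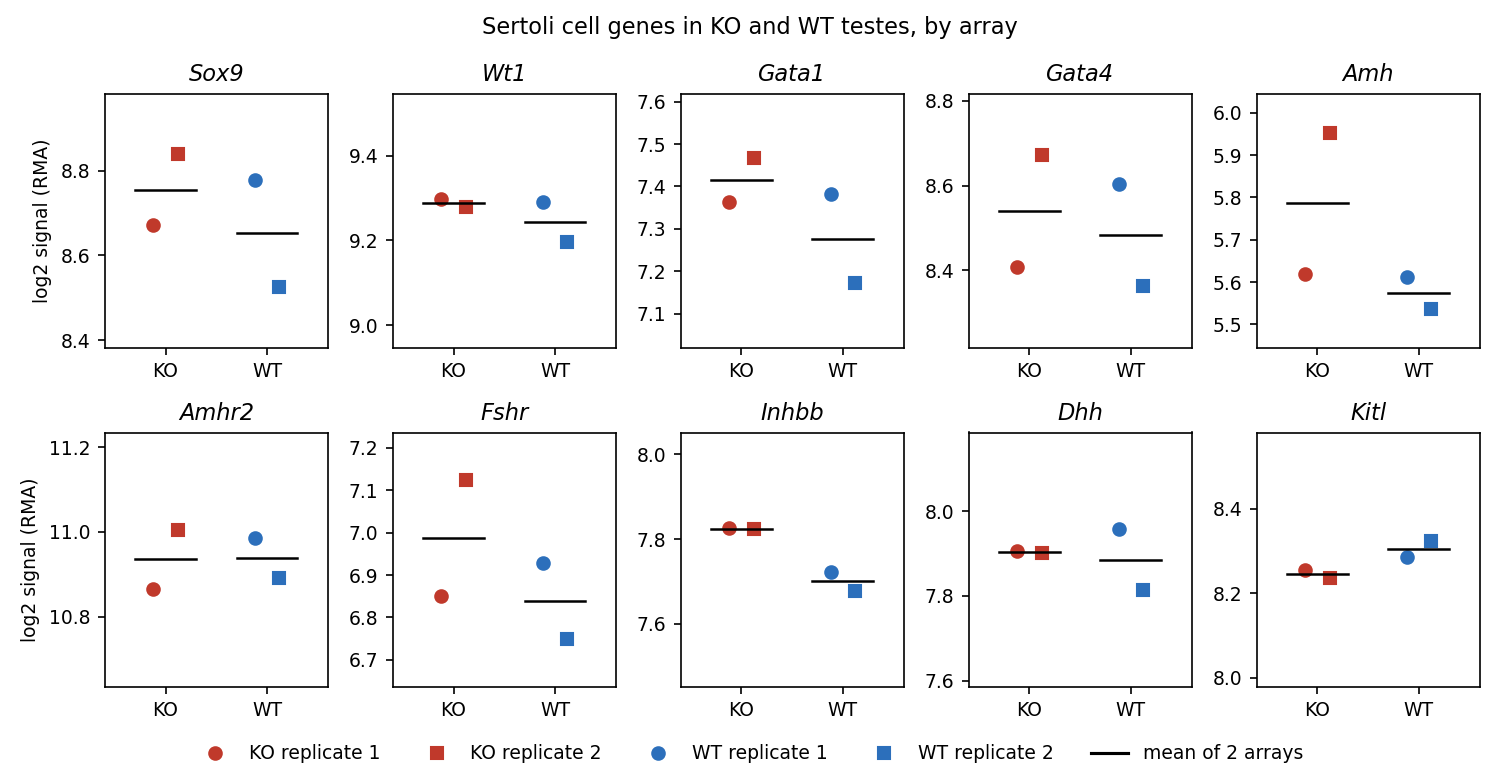
Log2 signal (vertical axis, each panel spanning the same width of 0.6) of the 10 Sertoli cell genes in KO (red) and WT (blue) testes. Each point is 1 array of RNA pooled from 3 mice, circles are replicate 1, squares are replicate 2 and bars are means of 2 arrays; only for Amh, Inhbb and Kitl do the KO and WT points not overlap.

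Among the transcription factors, Sox9, which directs the gonad toward testis and Sertoli cell fate, had log2 signals of 8.67 and 8.84 in KO testes, against 8.78 and 8.53 in WT testes. The groups overlapped, with KO replicate 2 highest and WT replicate 2 lowest. Its log2 fold change was 0.10 (standard error 0.11, 95% confidence interval -0.17 to 0.38). Wt1, a zinc finger factor needed for gonad formation and for the maintenance of Sertoli cells, had 9.30 and 9.28 in KO testes, against 9.29 and 9.20 in WT testes. Here 3 of the arrays were nearly level and WT replicate 2 was again the lowest (log2 fold change 0.05, standard error 0.06, 95% confidence interval -0.10 to 0.19).

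The GATA factors bind the DNA sequence from which they take their name, GATA1 in adult Sertoli cells of the mouse as well as in red blood cell precursors, and GATA4 in Sertoli and Leydig cells. Gata1 had log2 signals of 7.36 and 7.47 in KO testes, against 7.38 and 7.17 in WT testes. Gata4 had 8.41 and 8.67 in KO testes, against 8.60 and 8.36 in WT testes. Both genes had the same order of arrays as Sox9, with KO replicate 2 above WT replicate 1, then KO replicate 1, and WT replicate 2 at the bottom. The log2 fold change was 0.14 for Gata1 (standard error 0.09, 95% confidence interval -0.09 to 0.36) and 0.06 for Gata4 (standard error 0.12, 95% confidence interval -0.26 to 0.37). For Gata4 the gap within either genotype, 0.26 in KO and 0.24 in WT testes, exceeded the difference between the genotypes.

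Of the secreted hormones, Amh encodes anti-Müllerian hormone, which makes the Müllerian ducts regress in the male fetus and is made at a low level by Sertoli cells after puberty. Its log2 signals were 5.62 and 5.95 in KO testes, against 5.61 and 5.54 in WT testes. Both KO arrays lay above both WT arrays, but KO replicate 1 exceeded WT replicate 1 by less than 0.01, and KO replicate 2 stood above the other 3. Amh had the largest log2 fold change of the set at 0.21 (standard error 0.12, 95% confidence interval -0.09 to 0.52, unadjusted p = 0.135 from limma). It rests on KO replicate 2, as it was 0.04 with that array left out, against 0.38 when KO replicate 1 was left out instead.

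Inhbb encodes the βB subunit, which pairs with the inhibin α subunit to form inhibin B, the Sertoli cell hormone that lowers FSH secretion, or with itself to form activin B. Its log2 signals were 7.83 and 7.82 in KO testes, against 7.72 and 7.68 in WT testes. Both KO arrays lay above both WT arrays, and the gap within the genotypes was small, at 0.0033 in KO and 0.05 in WT testes. The log2 fold change was 0.12 (standard error 0.05, 95% confidence interval -0.0026 to 0.25), with the lowest unadjusted p of the set (0.0533 from limma, adjusted p = 0.99955). With any single array left out it stayed between 0.10 and 0.15. Over all genes, 4.29% had an unadjusted p as low as or lower than that of Inhbb.

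Kitl encodes KIT ligand, which Sertoli cells present to differentiating spermatogonia that carry the receptor KIT. Its log2 signals were 8.26 and 8.24 in KO testes, against 8.28 and 8.32 in WT testes. Both KO arrays lay below both WT arrays, the opposite order to that of Inhbb. The log2 fold change was -0.06 (standard error 0.05, 95% confidence interval -0.18 to 0.07). With any single array left out it ranged from -0.08 to -0.04, where the sign could not turn because the groups do not overlap. In all, 2 of the 10 genes had both KO arrays above both WT arrays, as had 20.1% of the named probe sets, and 1 of the 10 had both below, as had 12.3% of the named probe sets. These shares are close to those of the whole table.

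Dhh encodes desert hedgehog, a Sertoli cell ligand that acts on fetal Leydig and peritubular myoid cells. It had log2 signals of 7.91 and 7.90 in KO testes, against 7.96 and 7.81 in WT testes. Both KO arrays lay between the WT arrays, and the log2 fold change was 0.02 (standard error 0.07, 95% confidence interval -0.15 to 0.19).

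Of the receptors, Fshr encodes the receptor of FSH, which in the testis is found on Sertoli cells. It had log2 signals of 6.85 and 7.12 in KO testes, against 6.93 and 6.75 in WT testes. The order of the arrays was that of Sox9, Gata1 and Gata4, and the groups overlapped. The log2 fold change was 0.15 (standard error 0.11, 95% confidence interval -0.15 to 0.44), and it was 0.01 without KO replicate 2. Amhr2 encodes the type II receptor of anti-Müllerian hormone, known from Sertoli and Leydig cells. It had log2 signals of 10.86 and 11.01 in KO testes, against 10.98 and 10.89 in WT testes. The KO arrays were the highest and the lowest of the 4 and enclosed both WT arrays. The log2 fold change was -0.0031 (standard error 0.07, 95% confidence interval -0.19 to 0.18), the smallest of the set, and it was 0.0063 when each array was centred on its median.

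**Figure D2:**
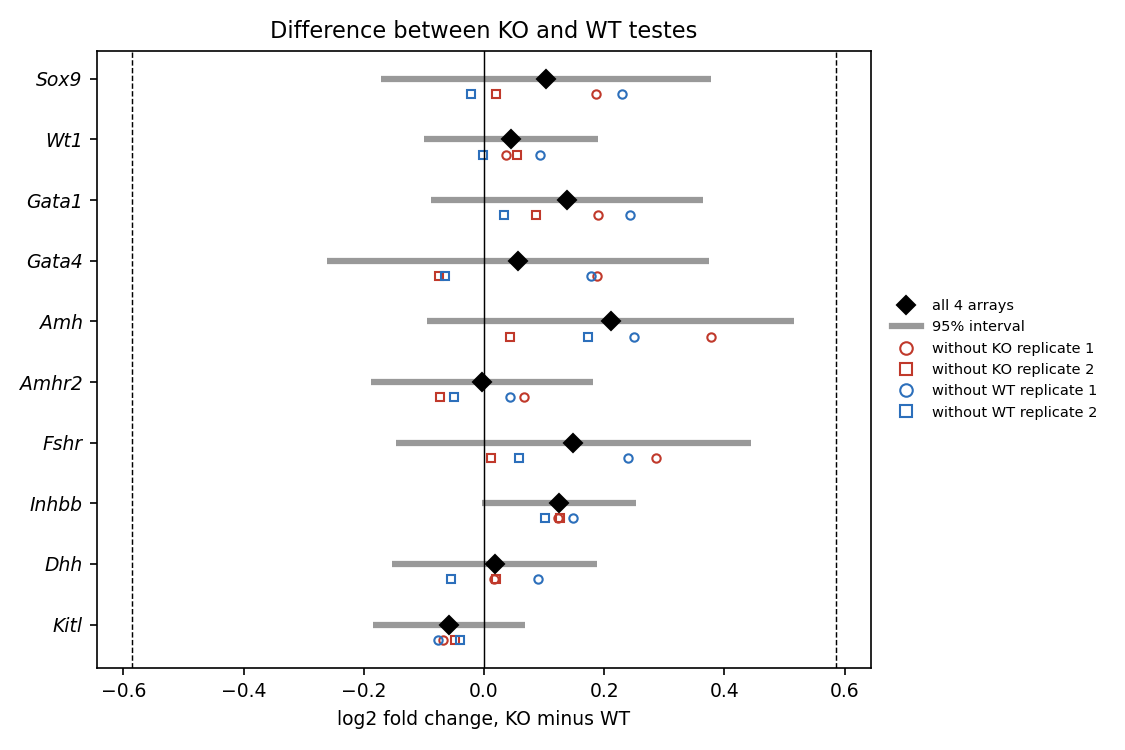
Log2 fold change, KO minus WT (horizontal axis), of the 10 Sertoli cell genes. Black diamonds are the values from all 4 arrays with 95% confidence intervals from limma (grey bars), open symbols are the values with 1 array left out, and dashed lines mark a fold of 1.5; each of these intervals holds 0 and none reaches a dashed line.

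The promoters of Inhbb and Kitl are shown because these genes had groups that did not overlap and narrow spreads, in opposite directions, and that of Fshr because its arrays had the order shared with Sox9, Gata1 and Gata4. The sequences are from a collection of RefSeq promoters (GRCm38.p6). It held an entry of this length for 6 of the 10 genes (Gata1, Amhr2, Fshr, Inhbb, Dhh and Kitl), which does not mean that RefSeq lacks the others. Each sequence covers 250 bases before to 50 bases after the annotated start of transcription and is written 5′ to 3′ on the strand of the gene. Capitals mark matches, on either strand, to 4 motifs, which are GATA (the core of the GATA factor site), ACAAT (the core of the SOX site), AGGTCA (a site of nuclear receptors such as NR5A1) and CACGTG (the E-box). No motif overlapped another in the 3 sequences.
Inhbb (chr1:119422199-119422498, minus strand): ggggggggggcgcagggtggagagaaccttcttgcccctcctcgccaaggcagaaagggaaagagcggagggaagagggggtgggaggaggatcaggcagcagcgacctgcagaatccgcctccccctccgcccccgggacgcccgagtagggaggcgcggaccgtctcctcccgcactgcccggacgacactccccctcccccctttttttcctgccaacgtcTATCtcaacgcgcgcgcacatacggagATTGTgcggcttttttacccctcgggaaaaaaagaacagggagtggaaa
Kitl (chr10:100015571-100015870, plus strand): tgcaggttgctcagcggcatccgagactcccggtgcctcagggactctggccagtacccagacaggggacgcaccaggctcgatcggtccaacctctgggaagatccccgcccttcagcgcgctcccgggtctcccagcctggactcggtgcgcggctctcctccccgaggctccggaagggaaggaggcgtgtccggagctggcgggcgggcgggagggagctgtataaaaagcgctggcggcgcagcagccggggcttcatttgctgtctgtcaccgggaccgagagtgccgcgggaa
Fshr (chr17:89200626-89200925, minus strand): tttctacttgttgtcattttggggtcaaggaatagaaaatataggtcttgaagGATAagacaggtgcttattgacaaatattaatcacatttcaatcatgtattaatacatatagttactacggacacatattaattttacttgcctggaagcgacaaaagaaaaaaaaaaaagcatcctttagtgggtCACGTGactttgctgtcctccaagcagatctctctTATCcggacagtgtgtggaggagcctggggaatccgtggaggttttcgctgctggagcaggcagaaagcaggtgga

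The Inhbb window held 1 GATA and 1 ACAAT match, both on the strand opposite to the gene, the Fshr window held 2 GATA matches and 1 E-box, and the Kitl window held none of the 4. Gata1 was also matched and had the array order of Fshr, but its promoter is not shown. That window held 1 GATA match and no E-box. GATA was present in 5 of the 6 promoters, against 57.9% of 32851 promoters of the same length. ACAAT was present in 1 of 6 (Inhbb), against 31.0% of all promoters, AGGTCA in 1 of 6 (Amhr2), against 16.3%, and CACGTG in 1 of 6 (Fshr), against 7.15%. So short a motif occurs often, and a match describes the letters only.

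The arrays of 1 genotype differed from each other for most of the 10 genes. WT replicate 2 was the lowest array for 8 of the 10 genes (Amhr2 and Kitl were the exceptions), against 30.1% of all genes, and KO replicate 2 was the highest for 6 of the 10, against 27.9% of all genes. The order KO replicate 2, WT replicate 1, KO replicate 1, WT replicate 2 was found in 4 of the 10 (Sox9, Gata1, Gata4 and Fshr), against 6.01% of all genes. This order was noticed in the values, and as genes of the same cells are not independent it is given as a description. For 8 of the 10 genes the gap within KO or within WT testes was larger than the difference between the genotypes, as for 79.0% of all genes, and the other 2 were Inhbb and Kitl. Relative to the mean of each gene, on the log2 scale, the 10 genes averaged -0.02 in KO replicate 1 and 0.10 in KO replicate 2, against 0.03 in WT replicate 1 and -0.10 in WT replicate 2. Leaving out KO replicate 1 or KO replicate 2 moved the median log2 fold change of 0.08 to 0.15 or 0.02, and leaving out WT replicate 1 or WT replicate 2 moved it to 0.16 or -0.01. The sign of Sox9, Wt1 and Dhh turned without WT replicate 2 (to -0.02, -0.0019 and -0.05), that of Gata4 without KO replicate 2 (-0.08) or WT replicate 2 (-0.06), and that of Amhr2 without KO replicate 1 (0.07) or WT replicate 1 (0.04).

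Markers of other cell types also differed among the arrays. Of 7 peritubular myoid cell markers, 4 were lowest in WT replicate 2, and their mean deviations were 0.02 and 0.03 in KO testes, against 0.04 and -0.08 in WT testes. Of 6 spermatogonia markers, 4 were lowest in WT replicate 2, with mean deviations of 0.04 and 0.02 in KO testes, against 0.08 and -0.14 in WT testes. Summed linear signals of the spermatogonia markers were 2194 and 2174 in KO testes, against 2199 and 1910.0 in WT testes, and those of the myoid markers were 5837 and 6080 in KO testes, against 5951 and 5639 in WT testes. All 7 macrophage markers were highest in WT replicate 2, with mean deviations of -0.26 and 0.04 in KO testes, against -0.03 and 0.25 in WT testes, and summed linear signals of 1354 and 1636 in KO testes, against 1639 and 2025 in WT testes. The Leydig cell markers, 6 of 8 listed, were low in KO replicate 1, with mean deviations of -0.16 and 0.09 in KO testes, against 0.08 and -0.02 in WT testes, and summed linear signals of 11129 and 12352 in KO testes, against 12703 and 11648 in WT testes. Markers of spermatids stayed within 0.01 of their gene means on average on every array. Of the Leydig cell markers 0 of 6, and of the macrophage markers 0 of 7, had a log2 fold change above 0 (medians -0.07 and -0.22). Above 0 were 5 of 7 myoid, 5 of 6 spermatogonia, 6 of 6 spermatocyte, 3 of 6 spermatid and 2 of 6 endothelial markers, against 56.6% of all genes. The median log2 fold change was 0.05 for the spermatocyte and -0.04 for the endothelial markers. The signal lay above the median on every array for 7 of 7 myoid, 6 of 6 Leydig cell, 6 of 7 macrophage and 5 of 6 spermatogonia markers. The part of cell makeup in the values of the Sertoli cell genes was not tested.

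**Figure D3:**
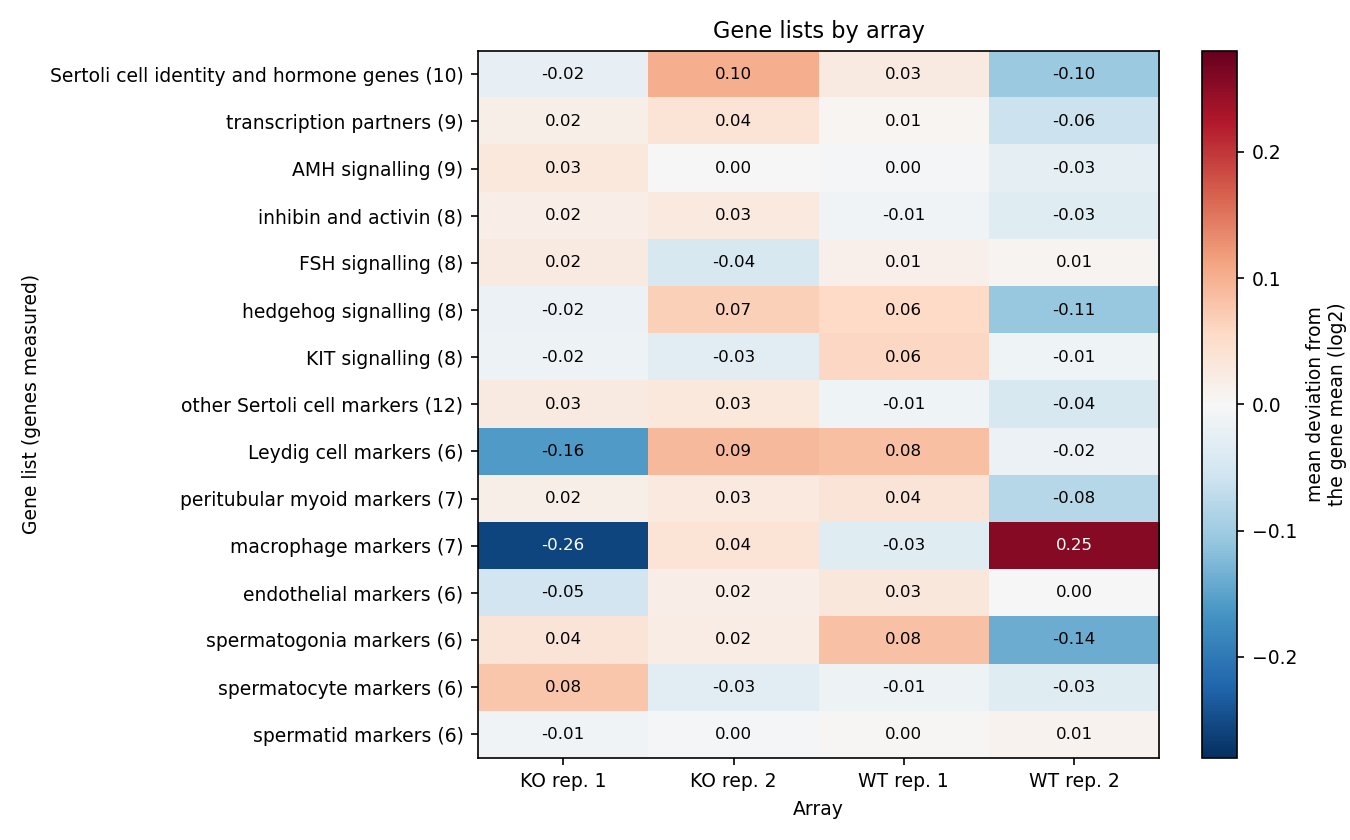
Mean deviation of each gene list from its gene means (colour and printed value, log2) on each array (columns), with the number of genes measured in brackets. The Sertoli cell identity and hormone genes were at 0.10 in KO replicate 2 and -0.10 in WT replicate 2, and 8 of the other 14 lists were also lowest in WT replicate 2, among them the other Sertoli cell markers at -0.04.

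Among the 106 genes of the pathway and marker lists, those whose centred values over the 4 arrays lay nearest to the mean profile of the Sertoli cell genes were Acta2, the smooth muscle actin of peritubular myoid cells (mean absolute difference 0.01), Cldn11, a tight junction protein of the Sertoli cell barrier (0.02), and Myl9, a myosin light chain of contractile cells (0.02). Acta2 had log2 signals of 10.54 and 10.62 in KO testes, against 10.56 and 10.44 in WT testes, and Cldn11 had 10.02 and 10.15 in KO testes, against 10.07 and 9.98 in WT testes. The likeness is over 4 arrays only.

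Of the 12 other Sertoli cell markers, 11 were above 0 and 1, the iron carrier gene Trf, was below (log2 fold changes from -0.03 to 0.13, median 0.06), and none passed an unadjusted p of 0.05 from limma. In 6 of the 12 both KO arrays lay above both WT arrays, against 20.1% of the named probe sets, and 56.6% of all genes were above 0. Trf was named after its values were seen. The smallest unadjusted p was that of Shbg, which encodes the androgen-binding protein (log2 fold change 0.11, standard error 0.05, unadjusted p = 0.0768 from limma).

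The genes that work with the set were followed in 6 lists, in which 50 of 57 genes had a value of their own. None of the 50 passed an adjusted p of 0.05 from limma, and 1 passed an unadjusted p of 0.05, against 0.00433% and 4.10% of the named probe sets. Of the 50, 28 were above 0 and 22 below 0, against 56.6% of all genes above 0, with a median log2 fold change of 0.03. These counts by threshold and by sign are close to the shares of the whole table. The counts without overlap were less so. In 16 of the 50 both KO arrays lay above both WT arrays, against 20.1% of the named probe sets. In 3 of the 50 both lay below, against 12.3%. This departure was not tested, and genes of the same cells are not independent. Among 9 transcription partners of the Sertoli cell factors, 6 were above 0 (median 0.08). Dmrt1, which keeps Sertoli cells from taking on granulosa cell features, had log2 signals of 8.55 and 8.53 in KO testes, against 8.47 and 8.35 in WT testes (log2 fold change 0.13, standard error 0.06). Cbx2, a Polycomb protein needed for male sex determination, had 7.51 and 7.52 in KO testes, against 7.46 and 7.26 in WT testes (log2 fold change 0.16, standard error 0.08). For both genes, named for the smallest p of the list, the KO arrays lay above the WT arrays. This held for 6 of the 9 partners, against 20.1% of the named probe sets. For 1 of the 9 the KO arrays lay below, against 12.3%.

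Of the inhibin and activin genes, 8 of 10 were measured, 5 above 0 and 3 below (median 0.05). Smad2, a transducer of activin signals, had log2 signals of 8.45 and 8.58 in KO testes, against 8.33 and 8.30 in WT testes. It was the gene of the 50 that passed the unadjusted threshold (log2 fold change 0.20, standard error 0.06, and by limma an unadjusted p = 0.0227 with an adjusted p = 0.99955). Tgfbr3, which encodes betaglycan, the coreceptor for inhibin, had 8.25 and 8.37 in KO testes, against 8.43 and 8.62 in WT testes (log2 fold change -0.21, standard error 0.09, unadjusted p = 0.0579 from limma). Inha and Inhba, whose products pair with or resemble that of Inhbb, were named after their values were seen. Inha, the α subunit gene, had 10.49 and 10.56 in KO testes, against 10.51 and 10.40 in WT testes (log2 fold change 0.07, standard error 0.06), and its groups overlapped. Inhba, the βA subunit gene, had 6.004 and 5.85 in KO testes, against 5.79 and 5.65 in WT testes (log2 fold change 0.20, standard error 0.08), a dim signal below the median of every array.

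The hedgehog list, 8 of 10 measured, had the widest range of mean deviations of the 6 pathway lists, with -0.02 and 0.07 in KO testes, against 0.06 and -0.11 in WT testes. Smo, the transducer that hedgehog ligands such as DHH release from inhibition, had log2 signals of 7.76 and 7.76 in KO testes, against 7.69 and 7.35 in WT testes (log2 fold change 0.24, standard error 0.12). WT replicate 2 stood apart from the other 3 arrays. Ptch1, the hedgehog receptor and a known target of the pathway, had 7.88 and 8.09 in KO testes, against 8.04 and 7.75 in WT testes, and was named after its values were seen. Gli1, a transcription factor whose level follows pathway activity, was dim, and its log2 fold change was 0.08 (standard error 0.06).

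The other 3 lists held no gene at an unadjusted p under 0.05 from limma. Of 9 genes of AMH signalling, 7 were above 0 (median 0.04), and the 2 smallest p-values were those of the type I receptor gene Bmpr1b (log2 fold change 0.08) and of the inhibitory Smad6 (0.08), both dim. Of 8 genes of FSH signalling measured, 3 were above 0 (median -0.03), with Pde4d, a cAMP phosphodiesterase gene, at -0.10 and Prkar1a, a regulatory subunit gene of protein kinase A, at -0.06. Of 8 genes around KIT, 2 were above 0 (median -0.03), with the adaptor gene Grb2 at -0.15 and the PI3-kinase subunit gene Pik3r1 at -0.08. Kit, the receptor gene for KIT ligand, was named after its values were seen. It had log2 signals of 8.20 and 8.81 in KO testes, against 8.75 and 8.58 in WT testes, so that KO replicate 1 lay apart from the other 3 arrays and the interval was wide (log2 fold change -0.16, 95% confidence interval -0.69 to 0.37).

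**Figure D4:**
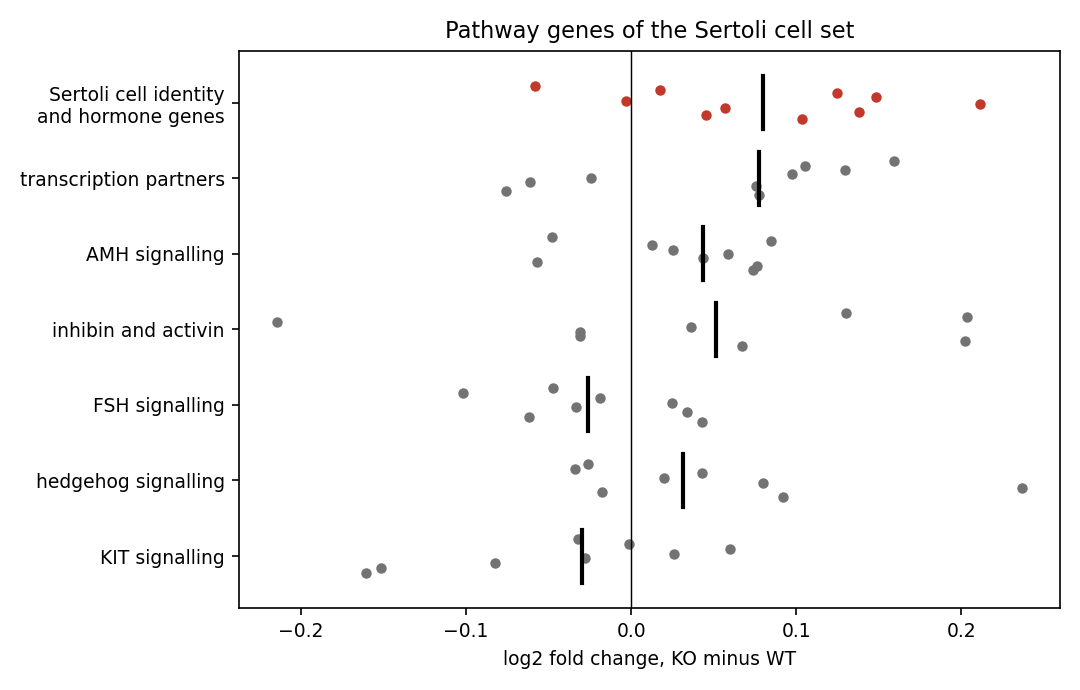
Log2 fold change, KO minus WT (horizontal axis), of the 10 Sertoli cell genes (red) and of the genes of 6 pathway lists (grey). Each point is 1 gene and black bars are medians, which lay between -0.03 and 0.08.

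In each marker list of another cell type the gene with the smallest p is given. Lyz2, the lysozyme gene of macrophages, had log2 signals of 8.73 and 9.03 in KO testes, against 9.29 and 9.59 in WT testes (log2 fold change -0.56, standard error 0.14, and by limma an unadjusted p = 0.0117 with an adjusted p = 0.99955). It was the only gene of the marker lists at an unadjusted p under 0.05. In the other lists the gene with the smallest p was Hsd3b6 for Leydig cells (-0.08), Cnn1 for peritubular myoid cells (0.15), Pecam1 for endothelial cells (-0.09), Dmrtb1 for spermatogonia (0.10), Sycp3 for spermatocytes (0.08) and Prm1 for spermatids (-0.05), all as log2 fold changes.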

How the data were processed

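Expression was measured in testes of Azin2 KO and WT mice, with 2 arrays each. The authors deposited log2 signals for each probe set, made with RMA (Partek 6.13.1224 per the labels), which corrects background, normalizes the arrays and summarizes probes. RMA compresses changes of dim probe sets. The genome build and the level of summarization are not given in the sources used here. Of 35556 probe sets, 21218 had 1 symbol in the platform annotation, 1881 several and 12457 none. The probe set with the highest mean gave the gene its value. KO minus WT was fitted with limma 3.58.1 (lmFit and eBayes, R 4.3.3) over the 23099 named probe sets with no filter, with Benjamini-Hochberg adjustment (2.96 prior and 2 residual degrees of freedom). The fit was tested on simulated data. The labels do not state that replicates were separate litters or days. The paper does not say whether the 2 pools of a genotype came from different mice. The p-values measure the spread between these pools only.

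The genes, the 6 pathway lists and 8 marker lists were chosen with earlier results of these data known. The text names the 10 genes, the 2 smallest p-values of each pathway list, the smallest of each marker list, Azin2, and the 3 genes nearest in array profile. Inha, Inhba, Ptch1, Kit, Trf, Defb45 and Gdnf fall outside this rule and were chosen after their values were seen. Alternatives were an intensity trend, robust eBayes, the ordinary equal-variance test, quantile normalization, centring, a filter on dim probe sets, every row of the table, a replicate block, the mean of all probe sets of a gene and each array left out. The mean of all probe sets could not change the values of the 10 genes, as each has 1 probe set. Figures were drawn with matplotlib 3.10.9.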

Additional observations from a re-analysis of the deposited data

How the results depend on the processing

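No Sertoli cell gene passed an adjusted p of 0.05 from limma, or from the ordinary equal-variance test, under any alternative run. At an unadjusted p under 0.05 the count of 0 of 10 became 1 by the ordinary equal-variance test and 1 with quantile normalization, and it ranged from 0 to 2 over the fits with 1 array left out, in which the remaining array of its genotype was assumed to vary like the other genotype. Inhbb was the gene that passed in the first 2 cases, Amh and Fshr passed without KO replicate 1, and Gata1 without WT replicate 1. By limma, the unadjusted p of Inhbb was 0.131 with an intensity trend, 0.127 with robust eBayes and that trend, and 0.102 with the replicate block. With the intensity trend the lowest unadjusted p of the set by limma was that of Amh (0.121). The median log2 fold change of the 10 genes ranged from -0.01 without WT replicate 2 to 0.16 without WT replicate 1, and was 0.06 with the 9 genes left by the filter on dim probe sets. The sign of Amhr2 turned with each array centred on its median (0.0063), and with 1 array left out, log2 fold changes ranged from -0.074 to 0.067 for Amhr2, -0.055 to 0.090 for Dhh, -0.076 to 0.19 for Gata4, -0.022 to 0.23 for Sox9 and -0.0019 to 0.093 for Wt1. The count of named probe sets at an adjusted p under 0.05, 1, became 0 with every row of the table and 0 with the ordinary equal-variance test, and with 1 array left out it ranged from 0 to 2. The count at an unadjusted p under 0.05, 946, was 1724 with every row of the table and 457 with the filter on dim probe sets, out of 35556 and 14181 probe sets tested. The cause of these changes was not tested. Same-numbered arrays did not deviate together (correlation -0.08 over 23099 probe sets), and with the replicate block 0 of the 10 genes and 1 probe set passed an adjusted p of 0.05 and 692 an unadjusted p of 0.05.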
